A study of Mus musculus with 24 samples.

Results

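The transcripts of 8 amino acid transporters, *Slc7a5*, *Slc3a2*, *Slc1a5*, *Slc1a4*, *Slc38a1*, *Slc38a2*, *Slc7a1* and *Slc7a6*, were followed in sorted regulatory T (Treg) cells from young and old mice. They were chosen by name, as plasma membrane carriers of amino acids in T cells, and make up 8 of the 17464 genes listed. The Treg subsets were sorted from spleens of wild-type C57BL/6JRccHsd mice: rTreg cells (resting, CD62L+ CD44-), aTreg cells (activated, CD62L- CD44+) and kTreg cells (KLRG1+). Each subset was taken from 4 young animals, aged 2 months, and from 4 old animals, aged 26 months, with no treatment in any group. This gave 24 libraries in 6 groups of 4. Libraries of the same age and sample number were taken as the subsets of 1 mouse. The sample titles give the number but do not name the mouse, so counts of mice across subsets rest on this reading. Both sexes were used in the study, and the sex of each mouse was not given in the sources used here. Values are normalized reads, which are the reads of a gene divided by 1 size factor per library, and all errors are SDs between 4 mice unless an SE is named.

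T cells need a supply of amino acids when they leave rest, for protein synthesis and for the activity of mTORC1, a kinase complex that senses amino acids at the lysosome. SLC7A5 is the light chain of the transporter LAT1, which brings in leucine and other large neutral amino acids in exchange for glutamine, and SLC3A2 (the CD98 heavy chain) carries LAT1 and other light chains, SLC7A6 among them, to the cell surface. SLC1A5 (ASCT2) and SLC1A4 (ASCT1) exchange small neutral amino acids, glutamine in the case of SLC1A5, while SLC38A1 (SNAT1) and SLC38A2 (SNAT2) take up glutamine and alanine together with sodium. SLC7A1 (CAT1) takes up arginine and lysine, and SLC7A6 (y+LAT2) exchanges cationic for neutral amino acids. In conventional T cells, *Slc7a5* is known to be induced by antigen receptor signals and by MYC.

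Libraries held 15045747 to 29521942 reads on the genes listed, and 1 read was worth 0.694 to 1.32 normalized reads. *Klrg1* lay between 16559 and 41561 in kTreg libraries and at 357 or below in the others, and *Foxp3*, the transcription factor that defines Treg cells, between 5079 and 37793 in all libraries. The 3 libraries of young mouse 2 held B cell transcripts (a summed level of 6782 to 15405 over 6 markers, against 490 to 2064 in the others) and macrophage and monocyte transcripts (3093 to 27594 over 7 markers, against 0 to 1363 in the other young libraries). Young kTreg replicate 4 listed 4913 genes at 0, against 419 to 2756 in the others, and old aTreg replicate 2 had the lowest *Foxp3* level. Results were therefore also computed without these 5 libraries, an alternative chosen after the values were seen. All old rTreg libraries, with macrophage and monocyte sums of 10267 to 26618, and all old kTreg libraries, with 2124 to 3404, were kept in those fits. The fits therefore do not address these transcripts in old rTreg and kTreg cells. *Cd44*, a sort marker, was higher in old than in young aTreg cells (0.67 ± 0.18 SE, adjusted p = 0.044, limma).

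All 8 transporters were listed and passed the filter on low values. On GRCm39, *Slc7a5* (ENSMUSG00000040010) lies on the minus strand of chromosome 8 from 122607884 to 122634433, *Slc3a2* (ENSMUSG00000010095) on the minus strand of chromosome 19 from 8684245 to 8701108, and *Slc1a5* (ENSMUSG00000001918) on the plus strand of chromosome 7 from 16515265 to 16532731. *Slc38a1* (ENSMUSG00000023169, 96469298 to 96541851) and *Slc38a2* (ENSMUSG00000022462, 96585266 to 96597894) are neighbours on the minus strand of chromosome 15. *Slc1a4* (ENSMUSG00000020142) lies on chromosome 11 from 20252180 to 20282774 and *Slc7a1* (ENSMUSG00000041313) on chromosome 5 from 148264220 to 148336848, both on the minus strand, and *Slc7a6* (ENSMUSG00000031904) on the plus strand of chromosome 8 from 106895139 to 106925346. The exons of *Slc3a2* share 743 bases, 15.9% of their length, with the antisense non-coding gene *Snhg1*. The cDNA kit does not mark the strand, so reads from these bases cannot be assigned to either gene, although the mean level of *Snhg1* was 401.5 against 4304 for *Slc3a2*. Each other gene that shared exon bases with a transporter covered 7.37% of its exon length or less.

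Levels can be compared between genes only per length. Per kilobase of the canonical transcript, *Slc1a5* was highest, with a median level of 3552 normalized reads (2560 to 4820 over the 24 libraries). *Slc3a2* followed with 1690 (1336 to 2265), and these genes kept this order in 24 of 24 libraries. The system A carriers came next, *Slc38a2* with 556 (385 to 681) and *Slc38a1* with 373 (271 to 502). *Slc38a2* was above *Slc38a1* in 19 of 24 libraries, so these neighbours overlapped. *Slc7a6* had a median level of 265 (97.8 to 303) and *Slc7a5* of 207 (94.9 to 369), with *Slc7a6* above *Slc7a5* in 16 of 24 libraries. *Slc7a1* had 54.8 (17.7 to 90.5) and *Slc1a4* 9.75 (0 to 35.3). Divided by all annotated exon bases instead, *Slc7a5* ranked 4th and *Slc38a1* 6th, and the other ranks were unchanged.

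**Figure D1:**
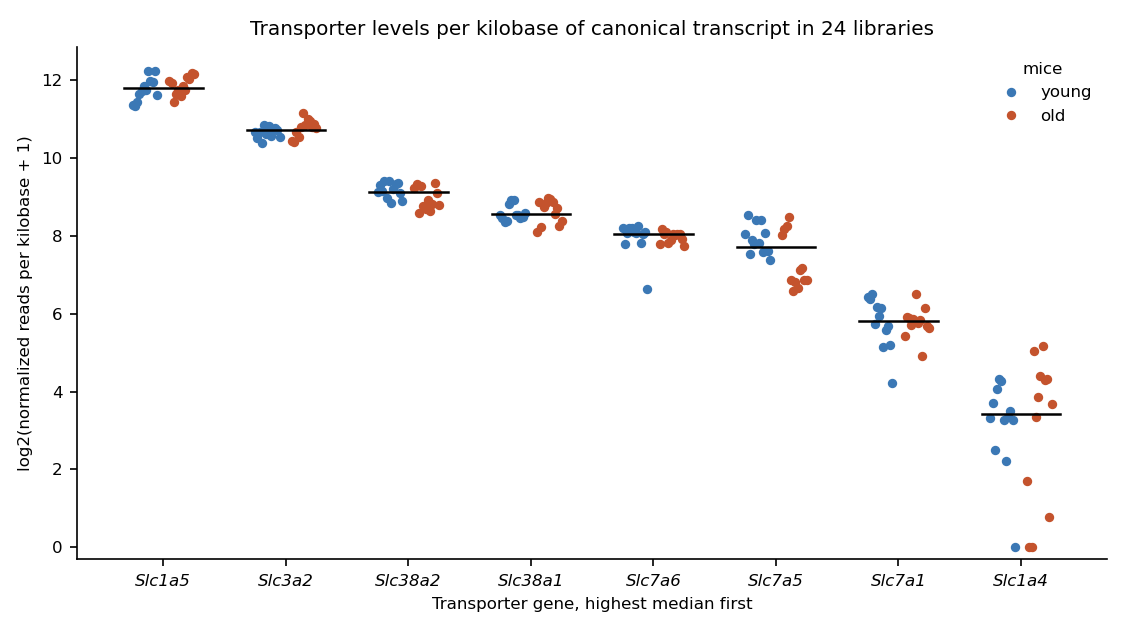
Levels of the 8 transporters as log2(normalized reads per kilobase + 1), with 1 point per library (blue, young mice; red, old mice) and a line at the median of 24 libraries. *Slc1a5* and *Slc3a2* lie above all other transporters, the old libraries of *Slc7a5* fall into a higher group (rTreg cells) and a lower one (aTreg and kTreg cells), and *Slc1a4* reaches 0.

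The groups were compared in 15 contrasts, between the subsets over both ages and within each age, between the ages within each subset, and as age differences of the subset contrasts. A gene was called when its adjusted p was below 0.05 and its fold change above 1.5. *Slc7a5* was called lower in 6 of 15 comparisons, against 2 for *Slc7a1* and 0 for each of the other transporters. In rTreg cells, its normalized reads were 919, 1297, 642 and 838 in the young mice and 916, 1006, 1075 and 1259 in the old mice. In aTreg cells, they were 773, 1193, 795 and 1197 in the young mice and 407, 334, 391 and 354 in the old mice. The old aTreg libraries were all below every young library of any subset, and they were also the closest to each other. In kTreg cells, the values were 673, 943, 686 and 580 in the young mice and 487, 506, 408 and 410 in the old mice, again with no overlap between the ages. Group means were 924 ± 275, 990 ± 237 and 720 ± 156 in young rTreg, aTreg and kTreg cells and 1064 ± 145, 371 ± 33.6 and 453 ± 51.3 in the old ones. These levels rested on 272 to 1652 reads per library.

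**Figure D2:**
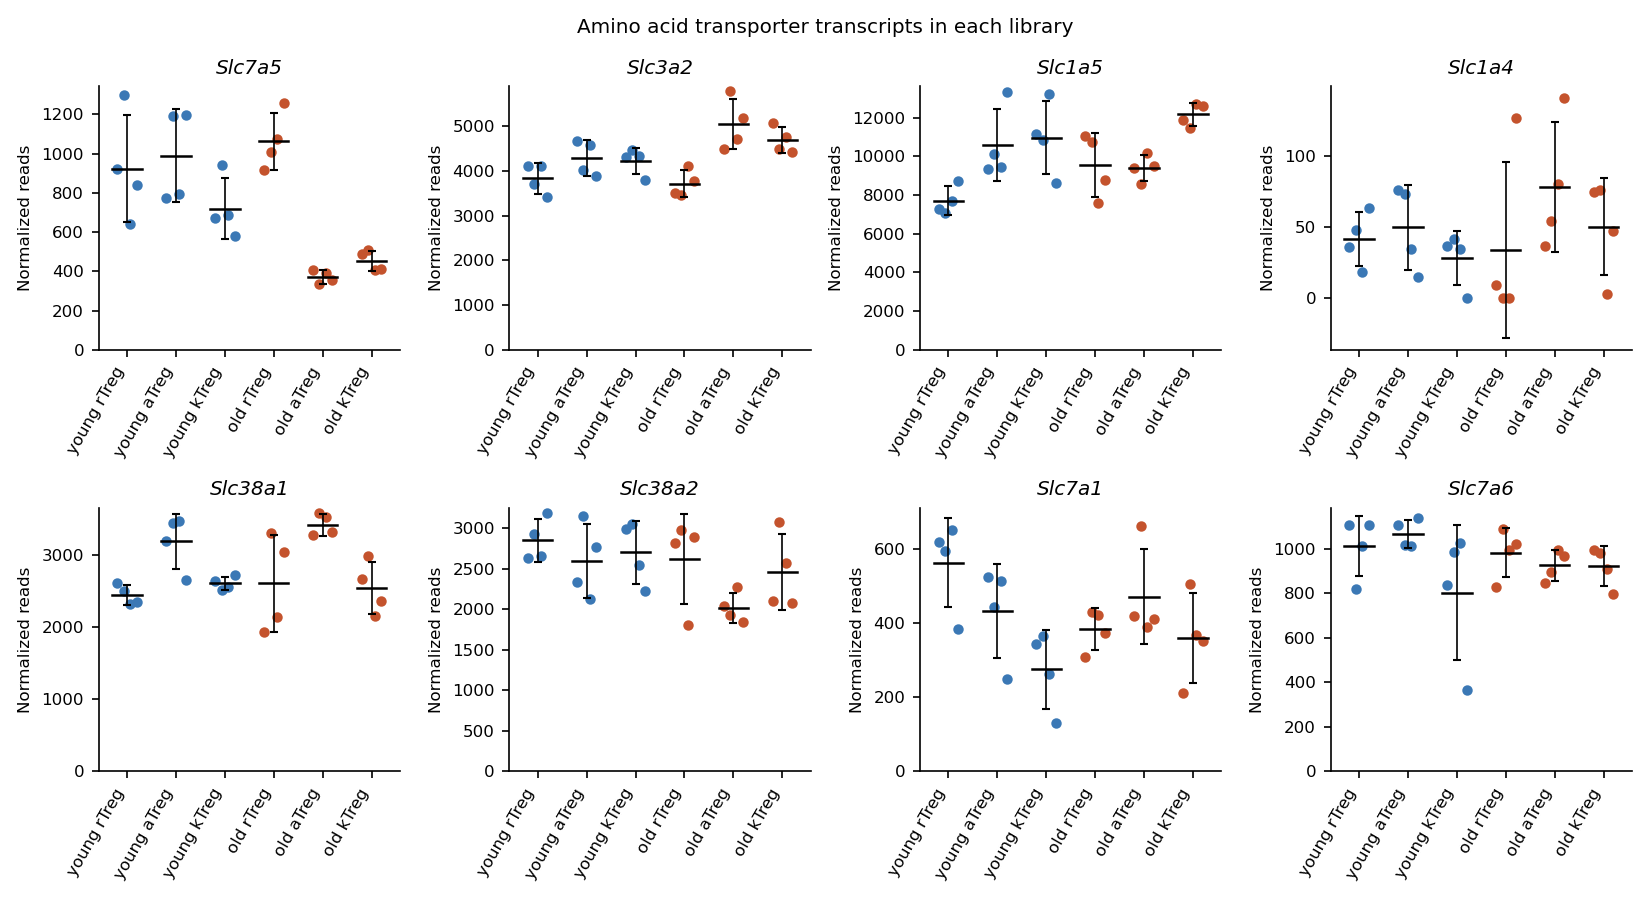
Normalized reads of each transporter in the 24 libraries by group (blue, young; red, old; points in order of mouse number), with the group mean and an error bar of 1 SD (n = 4); each panel has its own axis. *Slc7a5* falls to 334 to 407 in old aTreg cells, whereas for the other transporters the ages overlap in every subset but the aTreg cells of *Slc7a6*.

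With age, *Slc7a5* fell in aTreg cells. The mean of the young aTreg libraries was 2.66 times that of the old ones (log2 fold change −1.38 ± 0.20 SE, adjusted p = 3.2e-04, limma), where 2.71% of all genes tested were called. In rTreg cells, the difference between old and young mice was 0.24 on the log2 scale (95% interval −0.18 to 0.66, adjusted p = 0.53, limma). In kTreg cells it was −0.65 (95% interval −1.07 to −0.24, adjusted p = 0.11, limma), a difference of 1.59-fold between means without overlap of the libraries that missed the threshold. DESeq2 on the recovered reads called it (−0.67, adjusted p = 0.045). It was called in 2 of 46 alternatives, the other being the rule on an unadjusted p. Of the 46 alternatives tried for old against young aTreg cells, all 46 called *Slc7a5* lower, with log2 fold changes from −1.49 to −1.23.

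Between subsets and over both ages, *Slc7a5* was lower in aTreg than in rTreg cells (log2 fold change −0.70 ± 0.14 SE, adjusted p = 0.0020, lower in 6 of 8 mice) and in kTreg than in rTreg cells (−0.78 ± 0.14 SE, adjusted p = 2.9e-04, limma, lower in 7 of 8 mice). These values average over ages that differed. In old mice *Slc7a5* was lower in aTreg than in rTreg cells in 4 of 4 mice and without overlap (log2 fold change −1.51 ± 0.20 SE, adjusted p = 5.0e-05, limma), where 8.6% of all genes were called. In young mice the same comparison gave 0.11 (95% interval −0.30 to 0.53, adjusted p = 0.92, limma), with aTreg cells higher in 2 of 4 mice, and 3.35% of all genes were called. The difference between these contrasts was itself past the threshold (−1.62 ± 0.28 SE, adjusted p = 0.0086, limma), as it was for 1.56% of all genes. These comparisons share groups and are not independent of each other. Against rTreg cells, *Slc7a5* also fell in kTreg cells of old mice (−1.23 ± 0.20 SE, adjusted p = 3.9e-04, limma; 8.86% of all genes called), while the interval in young mice was −0.75 to 0.08 (adjusted p = 0.26, limma). The age difference of this contrast, −0.89 ± 0.28 SE, missed the threshold (adjusted p = 0.093, limma). It passed without young rTreg replicate 2 (−1.07, adjusted p = 0.028), without young kTreg replicate 4 (−0.99, adjusted p = 0.049), without the whole young mouse 2 (−0.93, adjusted p = 0.047) and without the 5 libraries (−1.01, adjusted p = 0.031, limma). In all, 5 of 47 alternatives called this age difference, these and the rule on an unadjusted p.

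kTreg and aTreg cells did not differ detectably in *Slc7a5*. The log2 difference was −0.08 over both ages (95% interval −0.38 to 0.21, adjusted p = 0.76, limma), with kTreg cells higher in 4 of 8 mice. The direction differed by age, with kTreg cells lower in 4 of 4 young mice (−0.45, adjusted p = 0.19, limma) and higher in 4 of 4 old mice (0.28, adjusted p = 0.54, limma), and the age difference of 0.73 ± 0.28 SE missed the threshold (adjusted p = 0.42, limma). In these sorted bulk libraries, fewer cells that express a gene and less RNA per cell cannot be told apart.

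Other measures moved with these groups. *Cd44* differed between old and young aTreg cells, as given above. The summed level of 7 macrophage and monocyte markers was 10267 to 26618 in old rTreg cells, 245 to 372 in old aTreg cells, 2124 to 3404 in old kTreg cells and 74 to 3093 in young aTreg cells. Between old and young aTreg cells, where 2.71% of all genes were called, 0 of these 7 markers were called by limma. That count is near the share of all genes and says nothing particular of these markers. Between aTreg and rTreg cells of old mice, where 8.6% of all genes were called, 2 of 7 were called lower. Other markers were called between old and young aTreg cells. Limma called 2 of 6 Treg markers lower, and 1 of 3 sort markers higher and 1 lower. It also called 1 of 4 plasma cell markers higher and 1 of 4 NK cell markers lower in that comparison. The summed level of 4 plasma cell markers was 3566 to 9765 in old rTreg and 728 to 2156 in old aTreg cells, and that of 5 neutrophil markers 48 to 9837 and 4 to 89. Of the B cell markers, *Ebf1* was at 0 in every old aTreg library and *Pax5* and *Ebf1* in every old kTreg library. The part of *Cd44* and of these markers in the *Slc7a5* result was not tested. A list of 30 proliferation genes summed to 71765 to 83661 in old rTreg, 33759 to 36617 in old aTreg and 30501 to 39556 in young aTreg cells. The aTreg groups overlapped in this sum. Between them 0 of the 30 genes were called by limma, edgeR, DESeq2 or voom (1 at an unadjusted p below 0.05). With 2.71% of all genes called by limma there, a count of 0 is near that share. In aTreg against rTreg cells of old mice 28 of 30 were called lower, beside 8.6% of all genes called.

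*Slc3a2*, the partner of *Slc7a5*, was called in 0 of 15 comparisons, by limma, edgeR, DESeq2 or voom (5 at an unadjusted p below 0.05). Its normalized reads were 4110, 3707, 4125 and 3413 in young rTreg cells and 3518, 3458, 4121 and 3770 in old rTreg cells. In aTreg cells they were 4678, 4016, 4585 and 3893 in the young mice and 4506, 5787, 4730 and 5179 in the old mice. In kTreg cells the values were 4306, 4475, 4328 and 3805 in the young mice and 5075, 4504, 4773 and 4433 in the old mice. *Slc3a2* was thus higher in aTreg than in rTreg cells in 8 of 8 mice, and in kTreg than in rTreg cells in 8 of 8 mice. These differences had adjusted p-values below 0.05 but stayed under the 1.5-fold threshold (log2 fold change 0.30 ± 0.07 SE, adjusted p = 0.0056, and 0.24 ± 0.07 SE, adjusted p = 0.014, limma). With age, the difference was 0.23 in aTreg cells (95% interval 0.03 to 0.43, adjusted p = 0.29, limma), opposite in sign to that of *Slc7a5*, and 0.28 in the age difference of aTreg against rTreg cells (95% interval −0.01 to 0.56, adjusted p = 0.33). The intervals were −0.25 to 0.16 in rTreg cells and −0.05 to 0.35 in kTreg cells.

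The ratio of *Slc7a5* to *Slc3a2* levels per kilobase was 0.177 ± 0.0585, 0.171 ± 0.0559 and 0.123 ± 0.0200 in young rTreg, aTreg and kTreg cells. In old mice it was 0.208 ± 0.0252, 0.0543 ± 0.0106 and 0.0702 ± 0.00829. The highest old aTreg library had 0.0656 and the lowest young one 0.120, so the ages did not overlap in aTreg cells, nor in kTreg cells (at most 0.0817 against at least 0.111). Over the 24 libraries the log2 values of the chains correlated with r = −0.74 (Spearman's rho −0.76), and after subtraction of the group means with r = −0.23. The libraries share mice, and both genes share the size factor of each library.

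**Figure D3:**
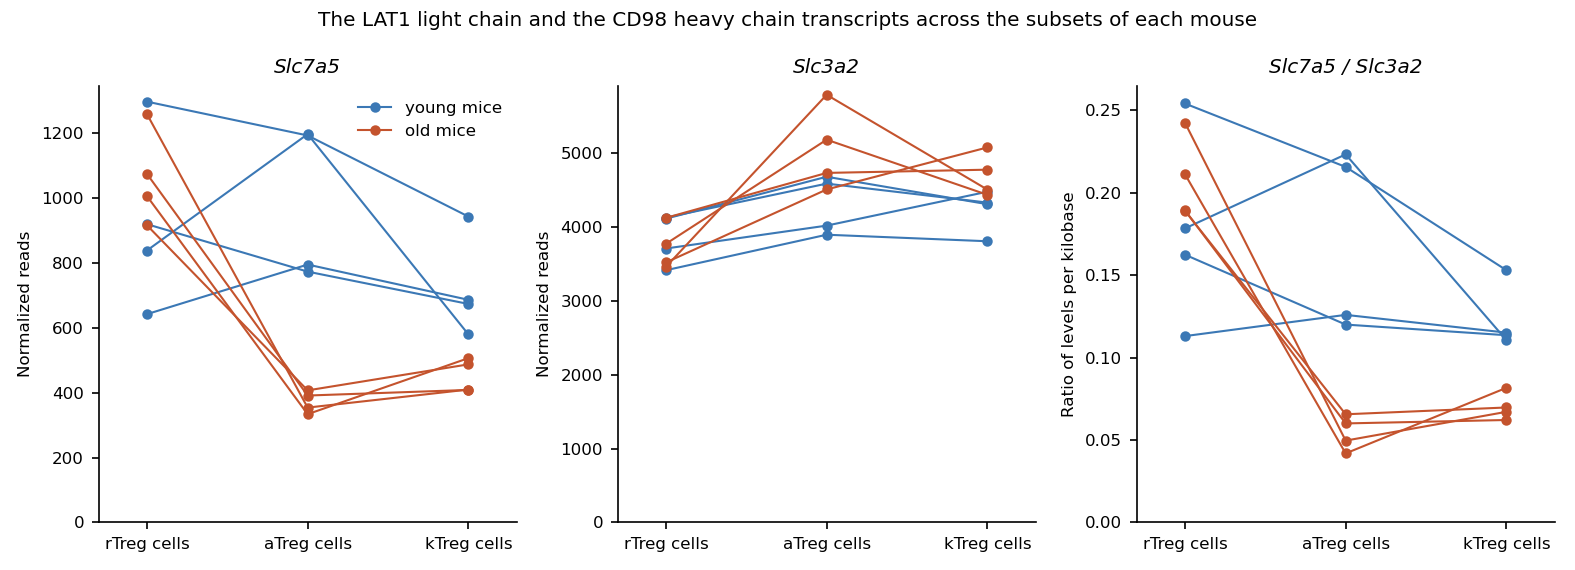
Normalized reads of *Slc7a5* and *Slc3a2* and the ratio of their levels per kilobase in rTreg, aTreg and kTreg cells, with 1 line per mouse (blue, 4 young; red, 4 old). From rTreg to aTreg cells *Slc7a5* drops in all 4 old mice and in 2 of the young mice, whereas *Slc3a2* is higher in aTreg cells of all 8 mice.

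*Slc1a5*, the glutamine and small neutral amino acid exchanger, was the most abundant transporter. Its normalized reads were 7273, 7077, 7713 and 8753 in young rTreg cells, 9371, 10148, 9476 and 13328 in young aTreg cells and 11183, 10862, 13246 and 8609 in young kTreg cells. In old mice they were 11062, 10738, 7597 and 8800 in rTreg cells, 9418, 8555, 10161 and 9496 in aTreg cells and 11882, 11485, 12719 and 12612 in kTreg cells. The old kTreg libraries were higher than all old rTreg and aTreg libraries. Over both ages, *Slc1a5* differed between kTreg and rTreg cells by 0.43 ± 0.09 SE (log2 fold change, adjusted p = 0.0017, limma), in 7 of 8 mice and under the 1.5-fold threshold. In young mice the difference was 0.50 ± 0.13 SE (adjusted p = 0.011, limma), and it passed the fold threshold without young kTreg replicate 4 (0.61, adjusted p = 0.0020), without the whole young mouse 4 (0.67, adjusted p = 6.3e-04) and without the 5 libraries (0.63, adjusted p = 0.012, limma). In all, 4 of 47 alternatives called this difference, these and the rule with no fold threshold. Young aTreg cells were above young rTreg cells without overlap (0.45 ± 0.13 SE, adjusted p = 0.064, limma), and the age difference of this contrast was −0.45 (95% interval −0.85 to −0.06, adjusted p = 0.23, limma). Old and young mice differed by 0.30 in rTreg cells (95% interval 0.02 to 0.57, adjusted p = 0.19), −0.16 in aTreg cells (−0.43 to 0.12, adjusted p = 0.76) and 0.17 in kTreg cells (−0.11 to 0.44, adjusted p = 0.54, limma).

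*Slc1a4*, its relative that carries serine, alanine and cysteine, was close to the lower limit of detection, with 0 to 166 reads per library. Its normalized reads were 36.0, 47.6, 18.5 and 63.2 in young rTreg cells, 75.8, 73.4, 34.6 and 14.7 in young aTreg cells and 36.6, 41.1, 34.6 and 0 in young kTreg cells. Old mice had 9.01, 0, 0 and 126.5 in rTreg cells, 36.3, 53.7, 80.3 and 140.5 in aTreg cells and 74.4, 75.7, 2.86 and 47.3 in kTreg cells. Values spread widely within the groups, and all of them overlapped with another group. Limma, edgeR, DESeq2 and voom called the gene in 0 of 15 comparisons (1 at an unadjusted p below 0.05). The comparison of aTreg with rTreg cells of old mice had a 95% interval of 0.76 to 6.32 on the log2 scale (adjusted p = 0.099, limma). It was called without old rTreg replicate 4 (5.01, adjusted p = 0.013, limma), without young kTreg replicate 4 (3.54, adjusted p = 0.036) and without the whole young mouse 4 (3.54, adjusted p = 0.044). In all, 4 of 47 alternatives called this comparison, these and the rule on an unadjusted p. Without old rTreg replicate 4, *Slc1a4* was also called higher in old kTreg than in old rTreg cells (3.90, adjusted p = 0.049, limma). In the same fit it was called lower in old than in young rTreg cells (−4.17, adjusted p = 0.044, limma).

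The sodium-coupled carriers were called in 0 of 15 comparisons each. *Slc38a1* lay between 2308 and 2606 in young rTreg, 2644 and 3466 in young aTreg and 2504 and 2715 in young kTreg cells, and between 1931 and 3301, 3264 and 3569, and 2146 and 2983 in the old subsets. It was higher in aTreg than in rTreg cells in 8 of 8 mice (log2 fold change 0.40 ± 0.10 SE, adjusted p = 0.0096, limma) and lower in kTreg than in aTreg cells in 7 of 8 mice (−0.36 ± 0.10 SE, adjusted p = 0.019, limma), in both cases by less than 1.5-fold. Its age differences were 0.06, 0.11 and −0.05 in rTreg, aTreg and kTreg cells, with intervals within −0.34 to 0.40. *Slc38a2*, a carrier that is itself induced when amino acids are short, lay between 1802 and 3190 over all libraries. Its mean was lowest in old aTreg cells, 2022 ± 184 against 2599 ± 457 in young ones (log2 fold change −0.35, 95% interval −0.69 to −0.01, adjusted p = 0.38, limma), and 3 of its comparisons had an unadjusted p below 0.05, against 5 for *Slc38a1*. By edgeR, DESeq2 and voom neither carrier was called.

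The cationic amino acid carriers had lower levels. *Slc7a1*, a carrier of arginine and lysine, had 621, 596, 653 and 385 normalized reads in young rTreg cells, 524, 443, 513 and 249 in young aTreg cells and 344, 366, 263 and 129 in young kTreg cells. The values lay in this descending order in all 4 young mice, and young mouse 4 was the lowest in each subset. In old mice they were 308, 431, 423 and 373 in rTreg cells, 420, 662, 389 and 413 in aTreg cells and 212, 506, 368 and 353 in kTreg cells, with overlap between the subsets. Within mice, *Slc7a1* was lower in kTreg than in aTreg cells in 8 of 8 mice over both ages, by a difference that was not called (−0.56, 95% interval −1.02 to −0.09, adjusted p = 0.12, limma). *Slc7a1* was lower in kTreg than in rTreg cells of young mice, without overlap of the libraries (−1.11 ± 0.32 SE, adjusted p = 0.017, limma), where 15.8% of all genes were called. In old mice the interval was −0.81 to 0.51 (adjusted p = 0.83, limma), and the age difference of 0.96 ± 0.45 SE was not called (adjusted p = 0.27, limma; 3.02% of all genes called). The call in young mice was lost without young kTreg replicate 4 (−0.78, adjusted p = 0.054), without young rTreg replicate 3 (−1.03, adjusted p = 0.058), without the whole young mouse 3 (−1.04, adjusted p = 0.10) and without the 5 libraries (−0.84, adjusted p = 0.11, limma). With the mouse as a fixed replicate block, *Slc7a1* was also called lower in kTreg than in aTreg cells of young mice (−0.70, adjusted p = 0.034, against 0.20 without the block, limma).

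Over both ages, the *Slc7a1* difference between kTreg and rTreg cells was −0.63 ± 0.23 SE (adjusted p = 0.048, limma), just past the threshold, and it was called in 18 of 47 alternatives. The call was lost in 17 of the 24 fits that leave out 1 library, with log2 fold changes from −0.64 to −0.46 in those fits. *Slc7a6*, the second light chain of the CD98 heavy chain in this set, had a narrow range in all groups but 1. Its normalized reads were 821 to 1108 in young rTreg, 1011 to 1137 in young aTreg, 827 to 1090 in old rTreg, 845 to 995 in old aTreg and 798 to 994 in old kTreg cells. In young kTreg cells they were 836, 985, 1026 and 367, and the low value belonged to the library with the most genes at 0. The age differences of *Slc7a6* had intervals of −0.49 to 0.41, −0.66 to 0.24 and −0.15 to 0.75 in rTreg, aTreg and kTreg cells. In aTreg cells the old libraries lay below the young ones without overlap, by a difference of −0.21 (adjusted p = 0.84, limma). *Slc7a6* was called in 0 of 15 comparisons by limma, edgeR, DESeq2 or voom (1 at an unadjusted p below 0.05).

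Of the 8 transporters, 0 to 2 were called in each comparison and all calls were lower. With 8 genes, 1 call is a larger share than the share of all genes called in most comparisons, so these counts say nothing particular of the set. In kTreg against rTreg cells over both ages 2 of 8, *Slc7a5* and *Slc7a1*, were lower, where 15.5% of all genes were called. In aTreg against rTreg cells 1 of 8 was lower (8.01% of all genes), and likewise 1 of 8 in old aTreg against rTreg, old kTreg against rTreg, young kTreg against rTreg and old against young aTreg cells. For kTreg against aTreg cells, limma called 0 of 8 over both ages (3 at an unadjusted p below 0.05; 7.39% of all genes called), 0 in young mice (3; 6.95%) and 0 in old mice (2; 2.2%), and for aTreg against rTreg cells of young mice it called 0 (2; 3.35%). By edgeR, DESeq2 and voom the counts were 0 in these 4 comparisons as well. Between old and young mice 0 of 8 were called in rTreg cells (1 at an unadjusted p below 0.05; 5.83% of all genes) and 0 in kTreg cells (1; 1.26%), with 1 call by DESeq2 in kTreg cells. The age difference was called for 0 of 8 in kTreg against aTreg cells (1; 0.156%) and in kTreg against rTreg cells (2; 3.02%), by all of these tools, and for 1 of 8, *Slc7a5*, in aTreg against rTreg cells. The median log2 fold change of the 8 genes was −0.02 in old against young aTreg cells and 0.13 in aTreg against rTreg cells of old mice, beside 0.01 and 0.11 over all genes tested.

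**Figure D4:**
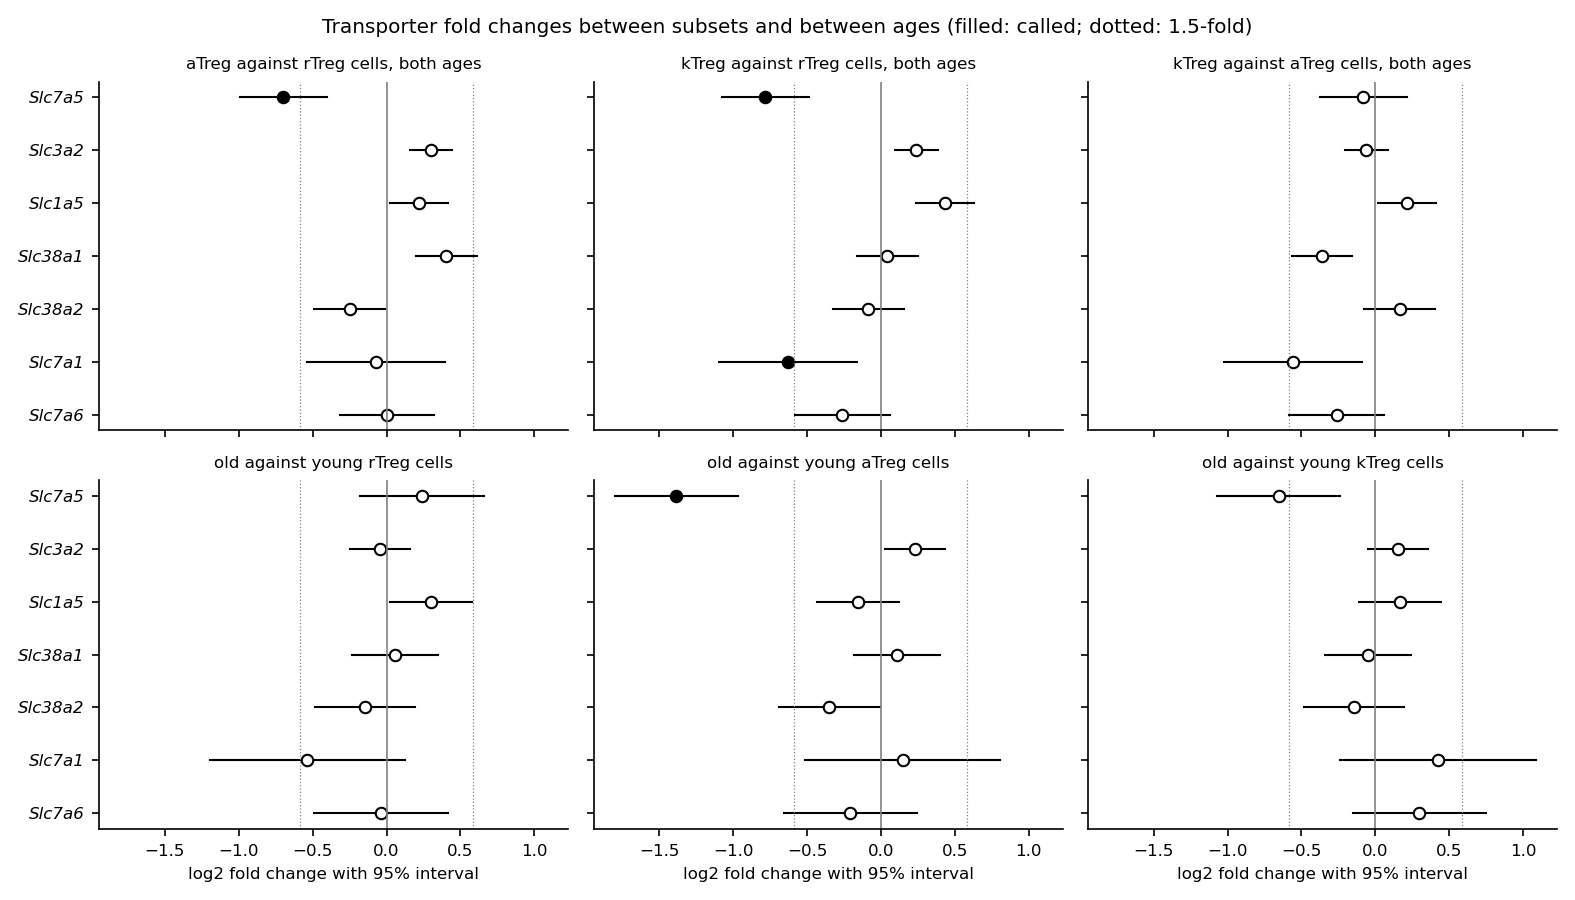
Log2 fold changes (points) with 95% intervals (lines) from limma for 7 transporters in 3 comparisons between subsets over both ages (top) and 3 between ages (bottom); filled points are called and dotted lines mark 1.5-fold. *Slc1a4* is left out because its intervals are several times wider; *Slc7a5* is the only filled point between ages.

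Other amino acid transporters were examined as a list of 31 genes, of which 22 were listed and tested. None of the 22 was called between old and young aTreg cells by limma, edgeR, DESeq2 or voom (0 at an unadjusted p below 0.05; 2.71% of all genes called), and the list's median was −0.06. *Slc7a10* is a light chain for small neutral amino acids that also pairs with SLC3A2. Between rTreg cells and the other subsets it moved opposite to *Slc7a5* in old mice and in the average over both ages. In young mice *Slc7a5* was not called between subsets. *Slc7a10* had 59.8 ± 65.3 in young and 170 ± 92.7 in old rTreg cells. It had 516 ± 313 and 945 ± 250 in aTreg cells (log2 fold change against rTreg cells over both ages 3.30 ± 0.54 SE, adjusted p = 2.5e-04, limma). In kTreg cells it had 549 ± 271 and 792 ± 97.5 (3.29 ± 0.54 SE, adjusted p = 8.8e-05, limma). *Slc7a8*, the light chain of LAT2, was the other gene of the list called between aTreg and rTreg cells, lower in aTreg cells (−3.16 ± 0.98 SE, adjusted p = 0.040, limma). Its values were 196 to 816 in old rTreg cells, 522 in young kTreg replicate 2 and 182 or below in the other libraries, and the libraries at 196 or more also had macrophage and monocyte sums of 10267 or more. The part of those transcripts in the *Slc7a8* result was not tested. In kTreg against rTreg cells, where 15.5% of all genes were called, 5 of the 22 were higher and 1 lower. The list median was 0.40, against −0.01 over all genes. Beside *Slc7a10*, the higher genes were *Slc43a2* (LAT4, a carrier of branched-chain amino acids; 0.71 ± 0.15 SE, adjusted p = 0.0014), *Slc36a4* (a proline and tryptophan carrier; 0.90 ± 0.27 SE, adjusted p = 0.017), the lysosomal histidine and peptide carrier *Slc15a3* (3.36 ± 0.75 SE, adjusted p = 0.0022) and *Slc16a10*, an aromatic amino acid carrier named here after its values were seen (2.01 ± 0.56 SE, adjusted p = 0.011, limma). *Slc43a2* and *Slc36a4* were also higher in kTreg than in aTreg cells (0.65 ± 0.15 SE, adjusted p = 0.0066, and 0.84 ± 0.27 SE, adjusted p = 0.042, limma). The glycine carrier *Slc6a9* was called lower in both comparisons but reached at most 42.7 normalized reads.

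Between old and young rTreg cells, where 5.83% of all genes were called, 4 of the 22 other transporters were higher, *Slc38a10* (0.79 ± 0.18 SE, adjusted p = 0.0091), *Slc7a8* (5.43 ± 1.39 SE, adjusted p = 0.019), *Slc6a9* (3.15 ± 0.87 SE, adjusted p = 0.031) and *Slc7a10* (2.54 ± 0.76 SE, adjusted p = 0.045, limma), and edgeR called 1 of 22. These old rTreg libraries are the ones with the macrophage and monocyte transcripts given above, and in the same comparison 23 of 30 proliferation genes, 2 of 4 plasma cell markers and 1 marker each of neutrophils (of 5), NK cells (of 4) and platelets (of 3) were called higher. The part of these in the result was not tested. In the age difference of aTreg against rTreg cells, where 1.56% of all genes were called, 1 of 22 was called. It was *Slc38a10* (−1.05 ± 0.26 SE, adjusted p = 0.043, limma), and none was called by voom or without the 5 libraries.

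The transcription factor ATF4 raises transporter and amino acid synthesis genes when amino acids are short, and *Slc7a5* and *Slc3a2* are among its known targets. Of 20 other tested genes of this response, 3 were called in the age difference of aTreg against rTreg cells, all lower like *Slc7a5*: *Psat1* of serine synthesis (−1.19 ± 0.24 SE, adjusted p = 0.017), the mitochondrial serine hydroxymethyltransferase *Shmt2* (−0.83 ± 0.16 SE, adjusted p = 0.012) and the asparagine synthetase *Asns* (−2.59 ± 0.56 SE, adjusted p = 0.022, limma). Over all genes tested, 1.56% were called in this comparison. The list's median was −0.59, against 0.10 over all genes. *Psat1* lay between 1492 and 1913 in young and between 999 and 1333 in old aTreg cells, while rTreg cells went from 1159 to 1940 in young to 1807 to 2731 in old mice. *Asns* had 163 ± 29.5 and 152 ± 64.6 in young and old aTreg cells and 65.0 ± 26.8 and 356 ± 210 in young and old rTreg cells, with a difference between ages called in rTreg cells (2.36 ± 0.39 SE, adjusted p = 6.0e-04) and not in aTreg cells (−0.23, adjusted p = 0.94, limma). *Psat1* and the transcription factor *Cebpb* were also higher in old than in young rTreg cells (0.65 ± 0.17 SE, adjusted p = 0.024, and 1.01 ± 0.25 SE, adjusted p = 0.018, limma). The part of the myeloid transcripts in these comparisons was not tested.

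Within aTreg cells, where 2.71% of all genes were called between ages, 2 of the 20 were lower in old mice. They were *Shmt2* (−0.61 ± 0.11 SE, adjusted p = 0.0026) and the first enzyme of serine synthesis *Phgdh* (−0.82 ± 0.19 SE, adjusted p = 0.020, limma), and neither was called without the 5 libraries. In aTreg against rTreg cells of old mice, where 8.6% of all genes were called, 4 of the 20 were lower. They were *Psat1* (−1.01 ± 0.17 SE, adjusted p = 5.3e-04), *Phgdh* (−1.08 ± 0.19 SE, adjusted p = 9.7e-04), *Shmt2* (−0.59 ± 0.11 SE, adjusted p = 0.0016) and the leucine sensor *Sesn2* (−1.10 ± 0.32 SE, adjusted p = 0.031, limma). Without the 5 libraries 2 genes of the list were called. In old against young kTreg cells, where 1.26% of all genes were called, *Psat1* alone was lower (−0.84 ± 0.17 SE, adjusted p = 0.014, limma). Over both ages, *Phgdh* was lower in aTreg than in rTreg cells (−0.61 ± 0.14 SE, adjusted p = 0.0052), the pseudokinase *Trib3* lower and *Cebpb* higher in kTreg than in rTreg cells (−2.86 ± 0.58 SE, adjusted p = 9.2e-04, and 1.02 ± 0.18 SE, adjusted p = 2.0e-04), and *Sesn2* higher and *Trib3* lower in kTreg than in aTreg cells (1.00 ± 0.23 SE, adjusted p = 0.0055, and −1.81 ± 0.58 SE, adjusted p = 0.045, limma).

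The cytosolic aminoacyl-tRNA synthetases, many of which ATF4 also induces, were called rarely. Of 20 genes tested, 0 were called in the comparisons over both ages (3 to 10 at an unadjusted p below 0.05), where 7.39% to 15.5% of all genes were called. None was called in old against young aTreg cells (2; 2.71%) or in aTreg against rTreg cells of old mice (6; 8.6%). These counts were the same by limma, edgeR, DESeq2 and voom. At a share of 2.71%, 0 of 20 says nothing particular of the list. Only *Vars1*, the valine enzyme, was called among the comparisons over both ages and between ages. It was higher in old than in young rTreg cells (0.87 ± 0.20 SE, adjusted p = 0.0097, limma), where 5.83% of all genes were called.

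**Figure D5:**
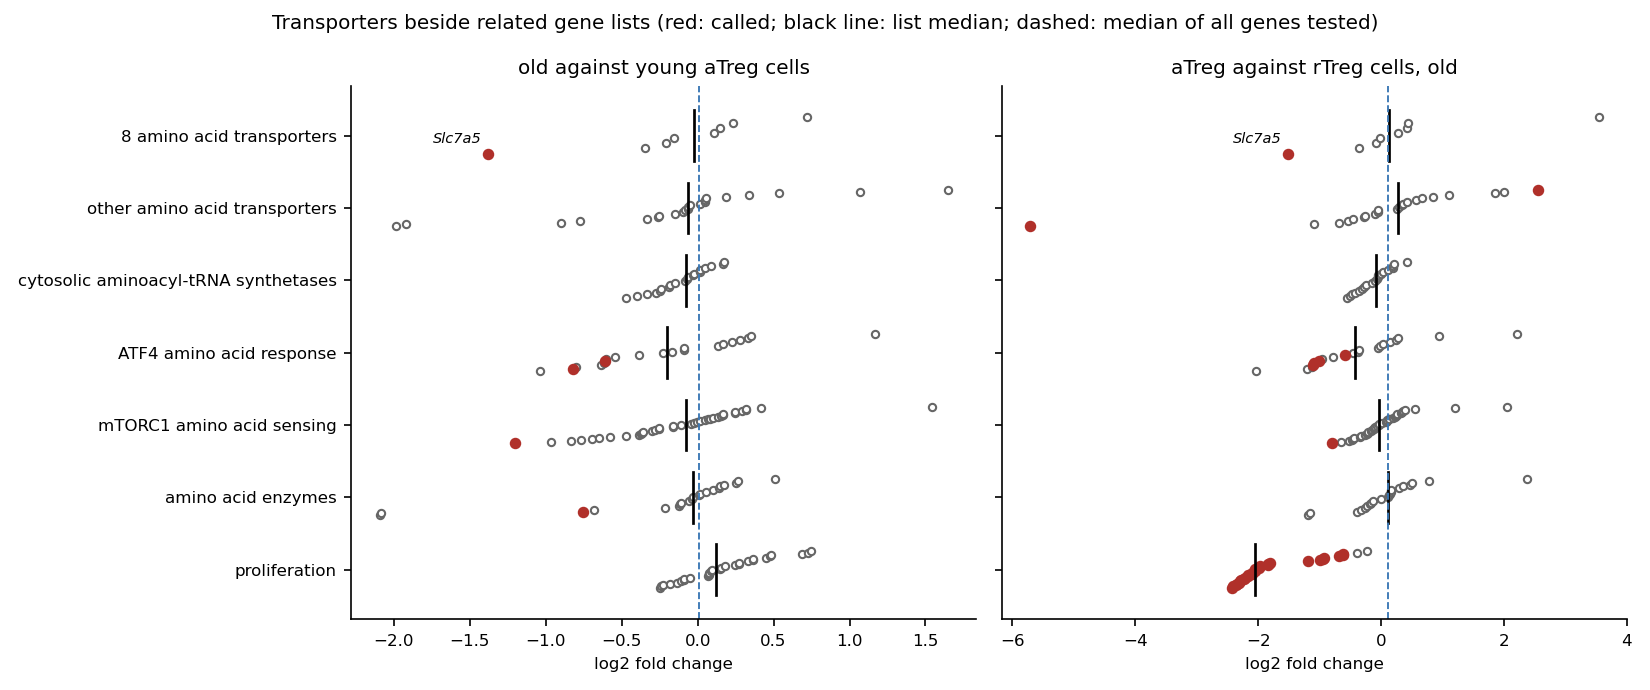
Log2 fold changes of the 8 transporters and of 6 related gene lists in old against young aTreg cells (left) and in aTreg against rTreg cells of old mice (right), with 1 point per gene tested (red, called), a black line at the list's median and a dashed line at the median of all genes; the axes differ. *Slc7a5* lies at −1.38 and −1.51. Of the proliferation list 0 of 30 genes are called in the left panel (2.71% of all genes) and 28 of 30 in the right (8.6%).

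Of 38 genes of mTORC1 and its amino acid sensors, 1 was called between old and young aTreg cells, a share close to the 2.71% of all genes called. It was the leucine sensor and mTORC1 inhibitor *Sesn1*. It fell from 5750 ± 959 to 2567 ± 743 (log2 fold change −1.20 ± 0.21 SE, adjusted p = 0.0017, limma) and also fell with age in kTreg cells, from 6671 ± 602 to 3460 ± 487 (−0.95 ± 0.21 SE, adjusted p = 0.023, limma). In old kTreg cells the mTOR inhibitor *Deptor* was higher (3.40 ± 0.81 SE, adjusted p = 0.037, limma) at levels of 34.1 to 293, and neither gene of this comparison was called without the 5 libraries. *Sesn3*, another sestrin, was lower in kTreg than in aTreg cells (−0.66 ± 0.14 SE, adjusted p = 0.0028) and than in rTreg cells (−0.65 ± 0.14 SE, adjusted p = 0.0015, limma). In the latter comparison *Wdr59*, of the GATOR complexes, was lower (−0.71 ± 0.17 SE, adjusted p = 0.0049) and the mTORC1 scaffold *Rptor* (0.80 ± 0.26 SE, adjusted p = 0.028) and the Rag GTPase *Rragb* (0.61 ± 0.20 SE, adjusted p = 0.028, limma) were higher. Among 21 enzymes of amino acid and polyamine metabolism, spermidine synthase *Srm* was lower in kTreg than in aTreg cells (−0.94 ± 0.12 SE, adjusted p = 1.6e-05) and rTreg cells (−1.11 ± 0.12 SE, adjusted p = 4.0e-07) and in old than in young aTreg cells (−0.75 ± 0.17 SE, adjusted p = 0.012, limma). Ornithine decarboxylase *Odc1*, the first enzyme of the polyamine pathway, was higher in aTreg and kTreg than in rTreg cells (0.97 ± 0.13 SE, adjusted p = 4.7e-05, and 0.98 ± 0.13 SE, adjusted p = 1.2e-05, limma) and in old than in young rTreg cells (0.82 ± 0.19 SE, adjusted p = 0.011, limma).

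*Myc*, a known activator of *Slc7a5*, was called lower in kTreg than in aTreg cells (−0.95 ± 0.15 SE, adjusted p = 2.7e-04) and than in rTreg cells (−1.30 ± 0.15 SE, adjusted p = 1.6e-06, limma). Its means were 4520 ± 61.3, 3562 ± 411 and 1495 ± 544 in young rTreg, aTreg and kTreg cells and 2844 ± 255, 2242 ± 446 and 1531 ± 354 in the old ones. Old and young mice differed in *Myc* by −0.67 in rTreg cells (adjusted p = 0.063) and −0.68 in aTreg cells (adjusted p = 0.10, limma), with an age difference of aTreg against rTreg cells of −0.01 (95% interval −0.65 to 0.63, adjusted p = 0.99, limma). Over the 24 libraries *Myc* correlated with *Slc7a5* with r = 0.56 and, after subtraction of the group means, with r = 0.33, and with *Slc3a2* and *Slc1a5* with r = −0.33 and −0.50 (0.27 and 0.23 after subtraction).

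The genes whose log2 values were most like those of *Slc7a5* over the 24 libraries were *Shmt1*, the cytosolic serine hydroxymethyltransferase (r = 0.90), *Lrrc32*, which encodes the Treg surface protein GARP (r = 0.89), and the translation initiation factor subunit *Eif3b* (r = 0.85). After subtraction of the group means the correlations were 0.40, 0.56 and 0.77. For *Slc3a2*, the closest genes were *Zwint* (0.86), *Bcl2a1b* (0.84) and *BC023105* (0.83), and for *Slc1a5* they were *Clptm1* (0.87), *Hs6st1* (0.86) and *Arhgef6* (0.85). *Slc38a1* was most like *Pdzrn3* (0.80), *Cd40lg* (0.75) and *Tnfsf14* (0.74), and *Slc38a2* most like *Sf3b1* (0.86), *Ets1* (0.84) and *Atp11b* (0.82). *Slc7a1* was most like the mitochondrial phosphate carrier *Slc25a3* (0.88), *Mrpl3* (0.85) and *Gm10762* (0.83). For *Slc7a6* (*Nmnat1*, *Ccdc15* and *Lig4*, 0.92 to 0.93), Pearson's r was well above Spearman's rho (0.57 to 0.79), and likewise for *Slc1a4* (*A630035G10Rik*, *Ccdc57* and *Enc1*, 0.82 to 0.85 against 0.53 to 0.62). None of the 8 transporters was among the 3 closest genes of another. The libraries compared share mice, groups and size factors, and these values describe likeness only.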

How the data were processed

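The series holds bulk RNA-seq (SMART-Seq v4 cDNA, paired reads of 150 bases) of 24 sorted Treg libraries. The authors aligned the reads to GRCm39 with HISAT2 2.2.1, used SAMtools 1.13, counted with HTSeq 1.99.2 and normalized with DESeq2 1.44.0; the annotation release, the strand setting and the treatment of multi-mapped reads were not given in the sources used here. The deposited signal values are gene counts that the authors divided by 1 size factor per library. Whole reads were recovered from them for 100% of values (within 0.001 reads), with 15045747 to 29521942 reads per library, and every one of the 17464 genes had at least 100 reads in all. Names and exon lengths came from GENCODE M39 (17353 IDs matched). A second deposited table, of sample labels, served as a check only.

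Log2(value + 1) was fitted with limma 3.58.1 (trend; R 4.3.3) in a model of 6 groups and 15 contrasts over the 16630 genes that reached 10 normalized reads in 4 or more libraries. On this scale, fold changes of low genes can be understated, and where libraries are at or near 0, as for *Slc1a4*, they can exceed the ratio of the group means. Adjusted p-values are two-sided and by Benjamini and Hochberg over all genes tested, and a call needed an adjusted p below 0.05 and a fold above 1.5. Mice are the replicates. In simulated data for old against young aTreg cells with 200 changed genes, 46.5% of 2-fold and 78.9% of 4-fold changes were called. The shares were 14.7% and 59% for the age difference of aTreg against rTreg cells. For kTreg against aTreg cells over both ages they were 81.5% and 88%. The 47 alternatives covered the pseudocount (0.5, 5), the filter (none, 50), the fold and p thresholds, only the groups compared, the mouse as a block, equal total reads, TMM factors, tests on the recovered reads (edgeR 4.0.16, DESeq2 1.42.0, voom), leaving out each library or mouse, and leaving out 5 libraries, which was chosen after seeing the data. Libraries of the same age and number were taken as the subsets of 1 mouse. Deviations from group means correlated more within these mice (median r 0.0911 to 0.153) than between them (−0.0507 to −0.0331). Subtracting the group means pushes the values between mice below 0 when those within mice are above 0. The values between mice are therefore not a separate baseline.

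The 8 transporters, the lists (other transporters, tRNA synthetases, ATF4 response, mTORC1 sensing, amino acid enzymes, proliferation, cell type markers) and the tests were chosen with earlier results of these data known. Genes of a list were named by a rule: the transporters in full, and from each list the 3 called genes of lowest p per direction, in the 3 comparisons of subsets over both ages and the 3 between ages; *Myc*, sort markers and, for each transporter, the 3 genes of highest Pearson correlation were added. Genes so named are also given in other comparisons. No test of lists was run. Some marker genes are not reported here.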

Additional observations from a re-analysis of the deposited data

Results flagged for a closer look

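The age difference of *Slc7a5* between aTreg and rTreg cells was −1.62 on the log2 scale (adjusted p = 0.0086, limma, tested as an interaction of age and subset), with *Slc7a5* lower in aTreg cells of 4 of 4 old and 2 of 4 young mice. In 4 of 48 groups of a transporter, 1 library lay far from the other 3 (Dixon's test, which picks about 1 group in 20 by chance). *Slc1a4* was at 0 in young kTreg replicate 4, where the other libraries had 34.6 to 41.1, and at 126.5 in old rTreg replicate 4, where the others had 0 to 9.01. *Slc38a2* was at 1802 in old rTreg replicate 3 against 2822 to 2986 in the others, and *Slc7a1* at 662 in old aTreg replicate 2 against 389 to 420.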

How the results depend on the processing

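*Slc7a5* was called lower in old than in young aTreg cells in 46 of 46 alternatives, and in 47 of 47 alternatives in the age difference of aTreg against rTreg cells, in aTreg and in kTreg against rTreg cells of old mice and over both ages. Its differences that were not called turned sign between kTreg and aTreg cells over both ages without young mouse 4 (0.017, within leave-one-out values of −0.15 to 0.017) and between young aTreg and rTreg cells without young rTreg replicate 3 (−0.047) or young mouse 4 (−0.02; leave-one-out values −0.047 to 0.29). Of the 120 pairs of transporter and comparison, 90 pairs of transporters other than *Slc7a5* were called in no alternative, and 32 of these changed sign in at least 1.

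The number of transporters called in kTreg against rTreg cells over both ages, 2, became 4 with no fold threshold and 1 with only the groups compared, with equal total reads, with edgeR, with DESeq2 and without the 5 libraries. With no fold threshold the numbers were 1 in kTreg against aTreg and 3 in aTreg against rTreg cells over both ages, and 2 in young kTreg, old kTreg and old aTreg cells against rTreg cells. With an unadjusted p they were 1 in young kTreg against aTreg cells, 2 in old aTreg against rTreg cells, 1 in old against young kTreg cells, and 1 and 2 in the age differences of kTreg against aTreg and rTreg cells. DESeq2 called 1 in old against young kTreg cells, the age difference of kTreg against rTreg cells had 1 without the 5 libraries, and young kTreg against rTreg cells had 0 with only the groups compared. Leaving out 1 library or mouse gave 1 to 2 calls in kTreg against rTreg cells over both ages and in old mice, 1 to 2 in old aTreg against rTreg cells, 0 to 2 in young kTreg against rTreg cells and 0 to 1 in old against young rTreg cells and in the age difference of kTreg against rTreg cells. The other comparisons kept their number in these fits. With the mouse as a replicate block (libraries of the same age and number taken as 1 mouse), 1 transporter, *Slc7a1*, was called in young kTreg against aTreg cells. No other call of a transporter changed.

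Over all genes, the number called was 451 in old against young aTreg cells (238 to 1355 over the alternatives), 970 in rTreg cells (416 to 2506) and 209 in kTreg cells (57 to 1890). It was 1229 (862 to 2083), 2570 (2037 to 3791) and 1332 (920 to 2307) in kTreg against aTreg, kTreg against rTreg and aTreg against rTreg cells over both ages, 1156 (618 to 2682), 2629 (1550 to 3949) and 557 (185 to 1524) in young mice, and 366 (57 to 1448), 1474 (689 to 3026) and 1431 (701 to 2877) in old mice. The age differences of these contrasts gave 26 (3 to 1253), 503 (162 to 2497) and 259 (25 to 2133). Equal total reads moved the share of higher calls by over 10 points only in the age difference of kTreg against aTreg cells, from 26.9% to 50% of 14 calls. The cause of these movements was not tested.

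*Slc1a4* is limited by depth (0 to 166 reads), and its intervals are wide. Transport and the amounts of the proteins were not measured, and each group had 4 mice.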
